A study of Homo sapiens with 2 samples.

Results

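Immediate-early genes are switched on within minutes of a growth signal, from transcription machinery that is already in place, and their mRNAs and proteins are usually short-lived. Serum and growth factors reach them through the MAP kinase cascade and serum response factor, and cell attachment and tension reach a second group through YAP and TEAD proteins. Most of the products are transcription factors that act in the nucleus, while CTGF and CYR61 are matricellular proteins, secreted into the matrix, where they bind integrins. The genes described here are EGR1, FOS, FOSL1, JUN, JUNB, JUND, MYC, IER2, CTGF and CYR61, taken as the rows of the deposited table that carry one of these symbols. All 10 had a row, out of 23608 gene rows in all.

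The ribosome profiling library and the RNA sequencing library were both made from SW13, an established human adrenal adenocarcinoma line. The cells had been transfected with 5 µg of plasmids for the mouse non-coding RNAs Mhrt779 and Hotair, and were collected 48 hours later, after growth in medium with 10% serum. A confluence of 80% was recorded for both libraries. Both libraries come from transfected cells, and no untransfected library was used here. Ribosome profiling reads the RNA fragments that ribosomes shield from nuclease, and RNA sequencing reads total RNA. Each assay had 1 library, so no value has a replicate error and no test of a condition was possible.

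The values are FPKM, fragments scaled by transcript length and library size, as the authors computed them. They allow genes to be compared with each other within a library, in ribosome profiling only as far as the length used for scaling permits. The number of reads behind them is unknown. Of 11 adrenal cortex markers, such as the steroidogenic regulator NR5A1 and the cholesterol transporter STAR, 10 were listed at 0 in both libraries. NR0B1 was the exception, at 1.25 FPKM in ribosome profiling and 1.60 FPKM in RNA sequencing.

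Because ribosome profiling asks where ribosomes sit on an mRNA, the bases around each start codon and the layout of each transcript are given before the values. They come from 1 GENCODE 29 transcript per gene (build GRCh38) that is matched to a RefSeq mRNA. Each line runs 5′ to 3′ from 12 bases before the start codon, and the capitals mark the bases from 3 before the start codon to the first base after it.

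EGR1: tgctcgtccAGGATGGccgcggccaaggcc
JUND: gggaggcggAGGATGGaaacacccttctac
JUN: acggactgtTCTATGActgcaaagatggaa
FOSL1: ccagccccgGGCATGTtccgagacttcggg
IER2: cgtcgagtcGCCATGGaagtgcagaaagag
JUNB: tgggccgccCGGATGTgcactaaaatggaa
CYR61: ctgcgcgccACAATGAgctcccgcatcgcc
FOS: ctaaccgccACGATGAtgttctcgggcttc
CTGF: gcagtgccaACCATGAccgccgccagtatg

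Initiation is favoured by a purine 3 bases before the start codon and a G just after it. MYC is left out of this count because its transcript is annotated from a start codon other than ATG, as are all genes without an ATG start or with too short a 5′ UTR. Of the 9 contexts, 7 had the purine, against 91.1% of 2073 tested protein-coding genes, and JUN and JUNB had a pyrimidine there. EGR1, JUND and IER2 had both features, against 48.0% of those genes. An upstream ATG, from which a short reading frame could start, was found in the 5′ UTR of 3 of the 10 transcripts, against 39.4% of 2155 tested protein-coding genes. JUN had 3, IER2 had 2 and EGR1 had 1.

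AU-rich elements in the 3′ UTR, built on the pentamer ATTTA, are a known mark of short-lived mRNAs. The pentamer was searched on the mRNA strand only and was found in 9 of the 10 3′ UTRs, IER2 being the exception, against 56.1% of the tested protein-coding genes. The 3′ UTRs differ in length, with a median of 863 bases over the 10 genes and 518 bases over the tested protein-coding genes. FOS and CYR61 had 5 copies each, and the longer motif TTATTTATT, which contains the pentamer, was found in FOS alone, against 4.32% of tested protein-coding genes. For these 2 genes the 30-base window of the 3′ UTR with the most copies is printed, the first such window where several tie, with each ATTTA in capitals. Copies can overlap.

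FOS: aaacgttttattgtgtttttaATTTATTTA
CYR61: aaagattttATTTAtggaattaaccATTTA

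Summed, the 10 genes had almost the same summed level in both libraries, 252.9 FPKM in ribosome profiling and 253.1 FPKM in RNA sequencing. The individual genes went both ways, 5 with the higher FPKM in ribosome profiling and 5 with the higher FPKM in RNA sequencing. As deposited, ribosome profiling exceeded RNA sequencing by 1.31-fold at the median tested gene, and ratios are given on the log2(FPKM + 1) scale relative to that gene. A gene counts as tested if its mean over both libraries was at least 10 FPKM and the authors had not marked it as failed or too deep, which left 2734 genes. Of the 10 genes, 9 passed and FOS did not. CTGF passed through its ribosome profiling value, and EGR1, JUND and JUN through their RNA sequencing values, so no share of the tested genes is offered as support.

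**Figure D1:**
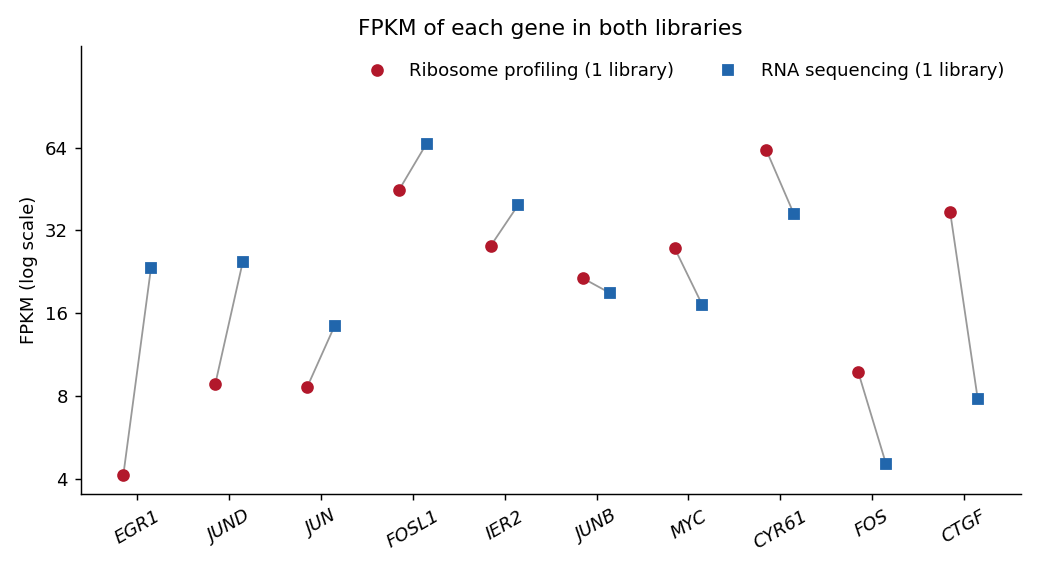
FPKM on a log axis of the 10 genes, circles for the ribosome profiling library and squares for the RNA sequencing library, with genes ordered by their ratio. EGR1 at the left has 4.13 against 23.2 FPKM and CTGF at the right has 37.2 against 7.77 FPKM.

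Of the 9 tested genes, EGR1, JUND and JUN lay 2-fold or more below the median gene, and CTGF lay 2-fold or more above it. The place of JUN among the lower genes depended on the settings, as it was at least 2-fold lower in 6 of 11 alternatives. Among all tested genes 19.7% were at least 2-fold lower and 13.1% at least 2-fold higher, and among the 2155 tested protein-coding genes the shares were 14.8% and 9.93%. The median log2 ratio of the 9 genes was -0.87, against 0 over all tested genes by construction and 0.04 over the tested protein-coding genes. With 9 genes, a count of 3 lower and 1 higher is close to these background shares, and the median moved to 0.0032 when the filter was lowered to 1 FPKM, which admitted FOS and moved the median gene itself. The values of the single genes, rather than a shift of the group, are therefore described in what follows.

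The early growth response factor EGR1, a zinc-finger transcription factor, had the lowest ratio. Its row (chromosome 5, 137801181 to 137805004 in hg19) had 4.13 FPKM in ribosome profiling and 23.2 FPKM in RNA sequencing. It lay 6.19-fold below the median gene, and 42 of the 2155 tested protein-coding genes had a lower ratio. EGR1 passed the filter through its RNA sequencing value, so that place is a description and not support. By level, EGR1 was the fifth highest of the 10 genes in RNA sequencing and the lowest in ribosome profiling. The authors' deposited table gave a log2 ratio of -2.49 with a model standard error of 0.97 and q = 0.195, and did not call it significant. Of the other EGR factors, EGR2 and EGR4 were listed at 0 in both libraries, and EGR3 had 1.26 FPKM in ribosome profiling and 0.537 FPKM in RNA sequencing.

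The JUN proteins pair with each other or with FOS proteins to form the transcription factor AP-1. All of JUN, JUNB and JUND have a single exon, and they did not share a ratio. JUND, the family member that is usually present in resting cells, had 8.81 FPKM in ribosome profiling and 24.6 FPKM in RNA sequencing, 3.41-fold below the median gene (chromosome 19, 18390563 to 18392432). JUN, the classical growth-induced member, had 8.59 FPKM in ribosome profiling and 14.4 FPKM in RNA sequencing, 2.10-fold below the median gene (chromosome 1, 59246463 to 59249785), and its log2 ratio ran from -1.25 to -0.26 over the alternatives. JUNB, a weaker activator that can restrain JUN, had 21.4 FPKM in ribosome profiling and 18.9 FPKM in RNA sequencing, 1.16-fold below the median gene (chromosome 19, 12902310 to 12904125), and its log2 ratio ran from -0.39 to 0.33 over other scalings and filters, above 0 in some. JUNB was thus the highest of the 3 in ribosome profiling, where JUND and JUN were nearly equal, and JUND was the highest in RNA sequencing.

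Set against their own family sum, which needs no scaling between the libraries, JUNB made up 55.2% of the JUN family's FPKM in ribosome profiling and 32.6% in RNA sequencing. JUND made up 22.7% in ribosome profiling and 42.5% in RNA sequencing, and JUN 22.1% and 24.9%. By the authors' deposited table JUNB exceeded JUND by 1.66 in log2 ratio, with a combined model error of 1.25 and a 95% interval from -0.80 to 4.12, so the order within the family was not resolved at that error.

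Among the FOS proteins, FOSL1, also called FRA1 and known from growing and invasive carcinoma cells, was the main form. It had 44.8 FPKM in ribosome profiling and 66.2 FPKM in RNA sequencing, 1.92-fold below the median gene (chromosome 11, 65659692 to 65667997), and was the most abundant of all 10 genes in RNA sequencing. FOS, the form that growth signals induce most briefly, had 9.73 FPKM in ribosome profiling and 4.54 FPKM in RNA sequencing (chromosome 14, 75745481 to 75748937). It was the lowest of the 10 genes in RNA sequencing and lay 1.48-fold above the median gene. FOSL1 made up 79.1% of the summed FPKM of FOS, FOSB, FOSL1 and FOSL2 in ribosome profiling and 87.8% in RNA sequencing, while FOS made up 17.2% and 6.02%. By the authors' deposited table FOSL1 minus FOS came to -1.66 in log2 ratio, with a 95% interval from -4.25 to 0.93.

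**Figure D2:**
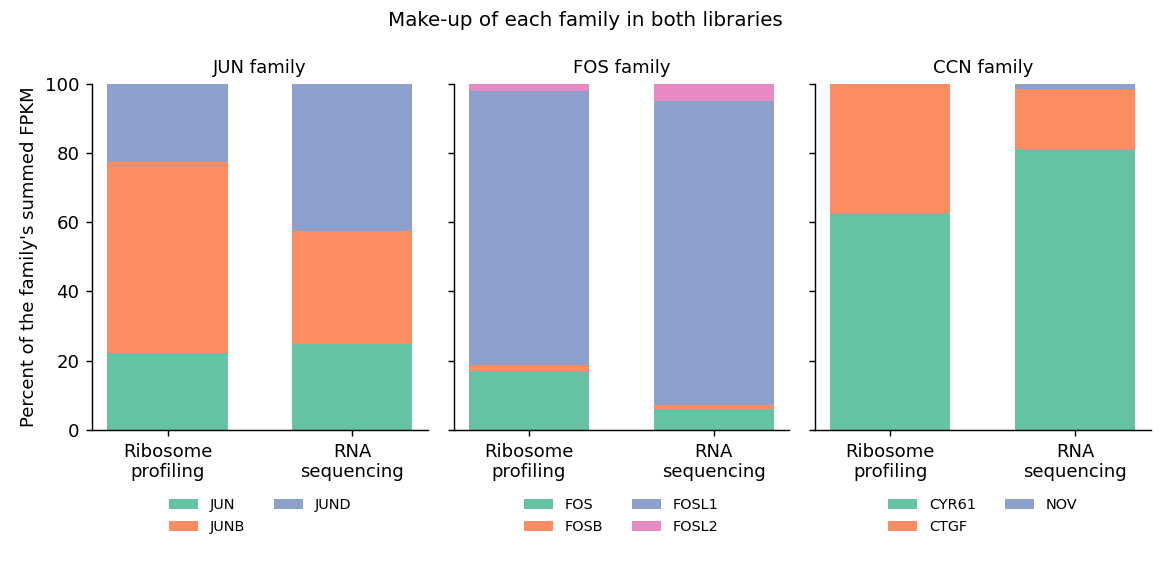
Percent of the summed FPKM of the JUN, FOS and CCN families that each member holds, with ribosome profiling at the left and RNA sequencing at the right of each panel. JUNB holds 55.2% against 32.6% of its family, FOS 17.2% against 6.02% and CTGF 37.3% against 17.2%.

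CTGF and CYR61, CCN proteins that are induced by serum and by YAP and TEAD, were both higher in ribosome profiling. CTGF had 37.2 FPKM in ribosome profiling and 7.77 FPKM in RNA sequencing, 3.32-fold above the median gene (chromosome 6, 132269317 to 132272518). Of the 2155 tested protein-coding genes, 48 had a higher ratio, a description only, as CTGF passed the filter through its ribosome profiling value. CYR61 had 62.5 FPKM in ribosome profiling and 36.6 FPKM in RNA sequencing, 1.29-fold above the median gene (chromosome 1, 86046444 to 86049648). CYR61 was the most abundant of the 10 genes in ribosome profiling. As deposited, CTGF had rank 3 of the 10 in ribosome profiling and rank 9 in RNA sequencing. Of the 4 other CCN genes, WISP1, WISP2 and WISP3 were listed at 0 in both libraries, and NOV was listed at 0 in ribosome profiling and had 0.693 FPKM in RNA sequencing. CTGF made up 37.3% of the family's FPKM in ribosome profiling and 17.2% in RNA sequencing. The authors' deposited table gave CTGF a log2 ratio of 2.26 with a model standard error of 0.88 and q = 0.195, without a call. In the authors' deposited table CTGF exceeded CYR61 by 1.49, with a combined error of 1.28 and a 95% interval that included 0.

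IER2, a small nuclear protein whose mRNA is induced with FOS and JUN, had 28.1 FPKM in ribosome profiling and 39.7 FPKM in RNA sequencing, 1.83-fold below the median gene (chromosome 19, 13261282 to 13265718). MYC, the growth-promoting transcription factor whose mRNA and protein both turn over quickly, had 27.6 FPKM in ribosome profiling and 17.2 FPKM in RNA sequencing, 1.20-fold above the median gene. In level as deposited, these 2 genes were next to each other in ribosome profiling, ranks 4 and 5 of the 10, and had ranks 2 and 7 in RNA sequencing.

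**Figure D3:**
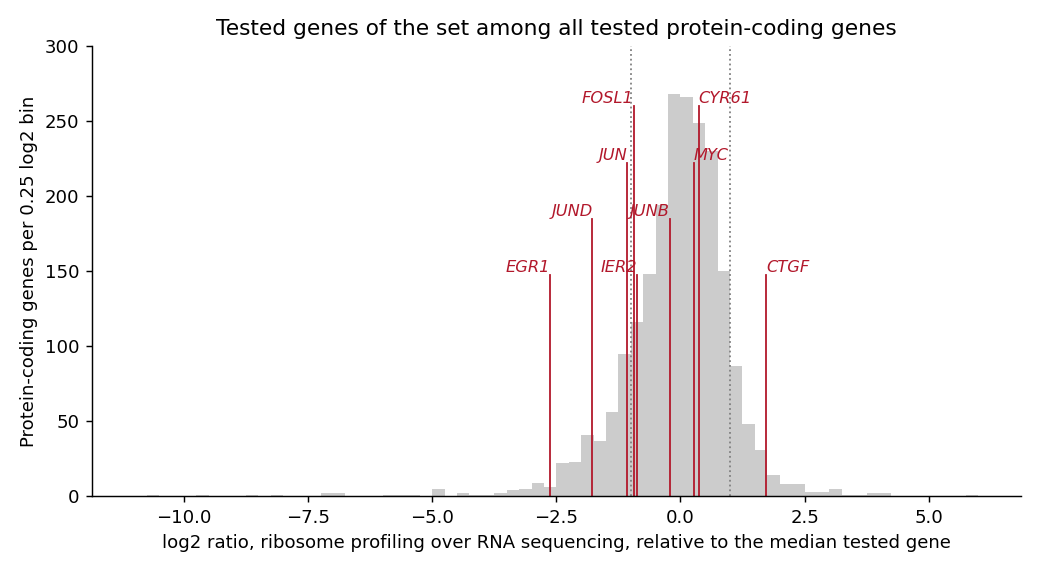
Histogram of the log2 ratio, ribosome profiling to RNA sequencing, for the 2155 tested protein-coding genes, with the 9 tested genes of the set as labelled vertical lines and dotted lines at 2-fold below and above the median tested gene. EGR1, JUND and JUN lie left of the lower dotted line and CTGF right of the upper one.

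The deposited table calls none of the 10 genes significant, at q-values from 0.195 to 0.943, where it calls 1.3% of its 4849 rows with the status OK. The model standard errors of the 10 log2 ratios ranged from 0.85 to 0.97 and hold no spread between cultures. With those errors, the 95% interval of the authors' deposited ratio left out 0 for EGR1, from -4.40 to -0.59, and for CTGF, from 0.54 to 3.98, and included it for the other 8 genes. These intervals are around the ratio as deposited, not around the median gene, and are not adjusted for the number of genes.

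Ordered by the authors' deposited ratio, the genes ran EGR1, JUND, JUN, FOSL1, IER2, JUNB, MYC, CYR61, FOS and CTGF. The 9 steps between neighbours in that order measured 0.066 to 1.16 in log2 ratio, with combined errors of 1.21 to 1.34, and none had a 95% interval that left out 0. Of the 10 differences computed between chosen pairs in the authors' deposited table, 2 had such an interval. CTGF lay above EGR1 by 4.75, with a combined error of 1.31 and an interval from 2.19 to 7.32, or from 1.08 to 8.43 when widened for 10 pairs. EGR1 lay below MYC by a difference of -3.18, with an interval from -5.72 to -0.64, which reached from -6.82 to 0.46 when widened. The errors were taken as independent. EGR1 and CTGF were chosen for pairs knowing that they stood at the ends. Their difference, and that of EGR1 and MYC, are therefore descriptions, and widening for 10 pairs does not cover that choice.

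**Figure D4:**
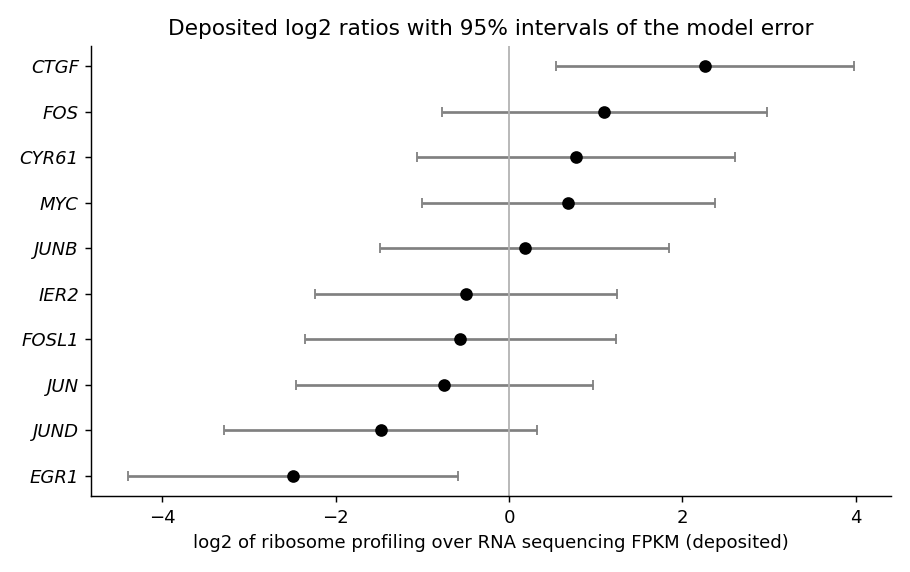
The authors' deposited log2 ratio, ribosome profiling to RNA sequencing, for each gene, with 95% intervals from the model standard error and a line at 0. The intervals of CTGF at the top and EGR1 at the bottom leave out 0, and those of the other 8 genes cross it.

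Ribosome footprints lie mostly in the coding sequence, whereas FPKM is usually divided by the length of the whole transcript. The length used for the deposited values is not given in the sources used here. JUN had a coding share of 28.1% of its transcript, with a 5′ UTR of 1257 bases, longer than that of 99.5% of the tested protein-coding genes. IER2 had a coding share of 32.2%. The other 8 genes had coding shares from 44.9% in CTGF to 57.7% in MYC, and the median over the tested protein-coding genes was 56.3%. When ribosome profiling FPKM was rescaled to coding length, a choice made after seeing the data, the log2 ratio of JUN relative to the median protein-coding gene was -0.26, against -1.11 as deposited with the same genes as centre. For IER2 it was -0.17, against -0.91.

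All 10 genes stayed on the same side of the centre after this rescaling. EGR1 had a rescaled log2 ratio of -2.73, JUND -1.91, FOSL1 -0.83 and JUNB -0.34. On the upper side, MYC had 0.13, CYR61 0.45, FOS 0.51 and CTGF 1.96. EGR1 and JUND were then at least 2-fold lower and CTGF at least 2-fold higher, against 16.3% and 17.9% of the tested protein-coding genes. JUN made up 36.5% of the JUN family's rescaled ribosome profiling FPKM, JUNB 44.7% and JUND 18.8%, so JUNB stayed the highest of the 3 and JUN passed JUND. In rescaled ribosome profiling FPKM, IER2 at 87.3 also passed CTGF at 82.8, which then lay between IER2 and MYC at 47.8.

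**Figure D5:**
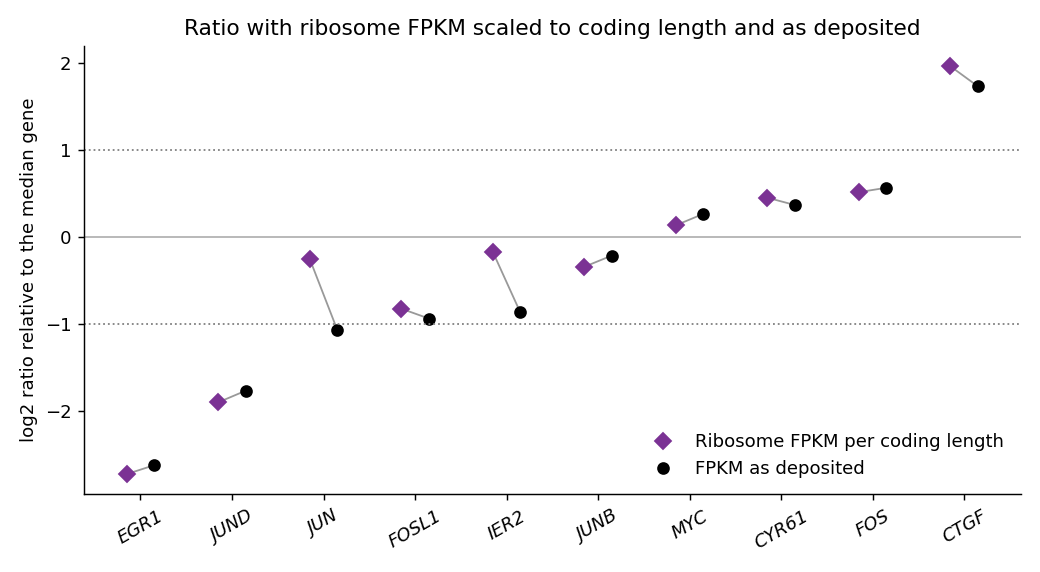
Log2 ratio, ribosome profiling to RNA sequencing, for the 10 genes, with ribosome profiling FPKM rescaled to coding length (diamonds, relative to the median tested protein-coding gene) and as deposited (circles, relative to the median of all tested genes). JUN and IER2 move up, to -0.26 and -0.17, and the other 8 genes move by less.

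Lists of related genes give the wider pathway. Among all tested genes, 19.7% were at least 2-fold lower and 13.1% at least 2-fold higher. Of 43 other immediate-early genes, 5 passed the filter and none of these was 2-fold from the median gene, with a median log2 ratio of -0.45. They were ID1 (27.3 FPKM in ribosome profiling and 27.2 in RNA sequencing) and ID3 (18.3 and 19.2), which block differentiation factors, the survival protein MCL1 (16.3 and 17.1), IER3 (23.3 and 16.6, from a row on an alternate haplotype), and ZFP36L1 (12.1 and 18.5), which binds AU-rich elements. MCL1 was named after its values were seen. At a filter of 1 FPKM, 28 of the 43 passed, with 5 at least 2-fold lower and 1 higher, where 19.6% of all genes at that filter were lower and 15.5% higher. The 28 divided evenly, 14 below and 14 above the median gene. Rescaled to coding length, 4 of the 28 were lower and 6 higher, against 20.5% and 19.5% of protein-coding genes at that filter. DUSP1, the phosphatase that ends MAP kinase signals, had 11.9 FPKM in ribosome profiling and 6.09 FPKM in RNA sequencing, and was named after its values were seen. It was the 1 higher gene at 1 FPKM, at a log2 ratio of 1.02, and had 0.97 when rescaled, below the 2-fold line. The 5 lower genes as deposited were ATF3, FOSL2, IER5L, MAFF and NR4A1, also named after their values were seen.

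Upstream regulators were next described. Of 22 kinases and transcription factors that drive or restrain these genes, 2 passed the filter, with 1 at least 2-fold lower and none higher. Among all tested genes 19.7% were lower and 13.1% higher, and 2 genes are too few to set against these shares. The MAP kinase kinase MAP2K2 had 7.34 FPKM in ribosome profiling and 24.6 FPKM in RNA sequencing, 4.02-fold below the median gene. At a filter of 1 FPKM, 6 of 20 were at least 2-fold lower and none higher, where 19.6% of all genes were lower and 15.5% higher. Serum response factor, SRF, which acts at the EGR1, FOS and CYR61 promoters, had 0.420 FPKM in ribosome profiling and 6.60 FPKM in RNA sequencing. NAB1, which binds and restrains EGR1, had 0.405 FPKM in ribosome profiling and 6.50 FPKM in RNA sequencing. SRF and NAB1 were named after their values were seen, and the authors' deposited table called neither, with q = 0.196 for SRF and q = 0.195 for NAB1.

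Rescaled to coding length at the same filter, 7 of 19 regulators were lower, SRF and NAB1 among them, and 5 higher. The shares of all protein-coding genes were then 20.5% and 19.5%.

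No further AP-1 partner out of 10 passed the main filter. At 1 FPKM 4 of 5 were at least 2-fold lower, ATF2, MAF, MAFG and MAFK, and none higher. Of all genes at that filter, 19.6% were lower and 15.5% higher. The fifth, ATF7, had 4.49 FPKM in ribosome profiling and 3.12 FPKM in RNA sequencing. All 5 were named after their values were seen. MAFG had 0.715 FPKM in ribosome profiling and 8.60 FPKM in RNA sequencing, and its coding share was 9.70%. After rescaling to coding length 1 of the 5 was at least 2-fold lower, MAF, and 1 was at least 2-fold higher, ATF7, at a log2 ratio of 1.69. The shares of all protein-coding genes at that filter were 20.5% and 19.5%, so these counts lie near the background. MAF had 0.354 FPKM in ribosome profiling and 6.12 FPKM in RNA sequencing as deposited. In the network of MYC, its dimer partner MAX passed the filter, at 13.3 FPKM in ribosome profiling and 13.4 FPKM in RNA sequencing. At 1 FPKM, 1 of 9 genes of that network was at least 2-fold lower and none higher, where 19.6% and 15.5% of all genes were. Rescaled to coding length, 2 were lower and 3 higher, against 20.5% and 19.5% of protein-coding genes.

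The YAP and TEAD pathway, which controls CTGF and CYR61, had 5 of 28 genes past the filter. Of these, 2 were at least 2-fold lower and none higher, against 19.7% and 13.1% of all tested genes. The YAP relative WWTR1, also called TAZ, had 9.88 FPKM in ribosome profiling and 17.7 FPKM in RNA sequencing, 2.25-fold below the median gene. MOB1A, a cofactor of the LATS kinases that hold YAP in the cytoplasm, had 13.0 FPKM in ribosome profiling and 22.6 FPKM in RNA sequencing, 2.20-fold below, and was named after its values were seen. At a filter of 1 FPKM, which moves the centre, the log2 ratios as deposited were -0.63 for WWTR1 and -0.59 for MOB1A. Rescaled to coding length at that same filter, they were 0.47 for WWTR1 and 1.36 for MOB1A, relative to the median protein-coding gene. The receptor AXL had 31.9 FPKM in ribosome profiling and 38.5 FPKM in RNA sequencing, and the surface enzyme NT5E had 37.8 FPKM in ribosome profiling and 26.6 FPKM in RNA sequencing. At a filter of 1 FPKM, 3 of 25 were at least 2-fold lower and 2 higher, where 19.6% of all genes were lower and 15.5% higher. Rescaled to coding length, 5 were lower and 6 higher, against 20.5% and 19.5% of protein-coding genes at that filter.

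Proteins that bind AU-rich and related elements had 6 of 9 genes past the filter, with a median log2 ratio of -0.83. Of these, 2 were at least 2-fold lower and none higher, against 19.7% and 13.1% of all tested genes. YBX1 had 131 FPKM in ribosome profiling and 228 FPKM in RNA sequencing, 2.27-fold below the median gene. IGF2BP1, which binds and stabilizes MYC mRNA, had 5.96 FPKM in ribosome profiling and 14.6 FPKM in RNA sequencing, 2.94-fold below at the main filter. At a filter of 1 FPKM, which moves the centre, its log2 ratio was -1.01 as deposited. Rescaled to coding length at that same filter it was 0.21, relative to the median protein-coding gene. At 1 FPKM, 1 of the 9 genes was at least 2-fold lower and 1 higher as deposited, where 19.6% and 15.5% of all genes were. Rescaled at that filter, none was lower and 2 were higher, against 20.5% and 19.5% of protein-coding genes. HNRNPD, also called AUF1, had 96.7 FPKM in ribosome profiling and 50.3 FPKM in RNA sequencing, 1.46-fold above the median gene at the main filter. PCBP1 had 55.9 and 44.4 FPKM.

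For both ends of the order, the tested genes with the closest pair of levels were found by distance over the 2 libraries on the log2(FPKM + 1) scale, out of 2403 genes. The 3 genes closest to EGR1 were POLR2J, at 4.47 FPKM in ribosome profiling and 22.2 FPKM in RNA sequencing, CXCL2, at 4.32 and 21.6 FPKM, and SHISA5, at 3.77 and 25.2 FPKM. CXCL2 is a chemokine, and POLR2J is an RNA polymerase II subunit with near-identical copies. Whether those copies divided its reads was not tested. The 2 genes closest to CTGF were PAF1, at 39.1 FPKM in ribosome profiling and 7.98 FPKM in RNA sequencing, and PAGE2B, at 36.7 and 7.24 FPKM. PAF1 belongs to a transcription elongation complex, and PAGE2B has a near-identical paralogue.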

How the data were processed

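Gene-level FPKM values for 1 ribosome profiling and 1 RNA sequencing library were used as deposited by the authors, in 1 table with the authors' log2 ratio (a score column in which infinite ratios are coded as extreme numbers), test statistic, p-value and q-value. Per the submitters' processing notes, bedtools 2.16.1, TopHat2 2.0.8b, SAMtools 0.1.18 and Bowtie2 2.0.0.6 were used, as were the mm10 and hg19 builds, with no role stated. The table came from a program, and has a scaling between libraries, not given in the sources used here. Its coordinates are read as hg19, for human genes. Reads were 50 nt. Deposited starts were raised by 1 so that coordinates count from 1.

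After adding a pseudocount of 1 FPKM, which shrinks ratios at low levels, the log2 ratio was taken and the median over tested genes (0.39) subtracted. Tested rows had a mean of at least 10 FPKM and were not marked FAIL or HIDATA. The deposited ratio matched the log2 of both FPKM values within 0.001 in 99.3% of 10966 rows, and the model standard error is its size over that of the statistic. Intervals of 95% are normal ones from that error. FPKM keep no depth, so no counting interval is given, and no p-value was computed.

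Transcript layout, motifs and start contexts come from GENCODE 29 (GRCh38), which gave a transcript for 2155 of the 2412 tested genes outside the small RNA genes (89.3%). The transcripts the authors used may differ. For MYC no start context is shown. The members, lists, pairs and tests were chosen with earlier results of these data known. Named are the 10 members, per list the 3 tested genes with the highest mean plus the ones at either end of the ratio, and the 3 genes nearest to each extreme member. Some genes that this rule names are not reported here. Genes outside it are marked as named after their values were seen. GAPDH (1708 FPKM in ribosome profiling and 1192 in RNA sequencing) and ACTB (885 and 759) are reference mRNAs. The ratio step was tested on simulated data. Python 3.11.15, pandas 2.3.3, numpy 2.4.6, scipy 1.17.1 and matplotlib 3.10.9 were used.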

Additional observations from a re-analysis of the deposited data

How the results depend on the processing

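The ratios were recomputed under 11 alternative settings. EGR1, from -2.87 to -1.96, and JUND, from -1.95 to -1.23, were at least 2-fold lower in all 11, and CTGF, from 1.39 to 2.28, was at least 2-fold higher in all 11, where the setting at 30 FPKM only moves the centre for genes that do not pass it. JUN was below the centre in all 11 and at least 2-fold lower in 6, with -0.84 at a pseudocount of 5 FPKM, -0.52 at 1 FPKM, -0.68 with no filter and without centring, and -0.26 per coding length. JUNB was below in 8. The median over the tested genes of the set was -0.87, against -0.76 with a pseudocount of 5 FPKM, 0.0032 over 10 genes with a filter of 1 FPKM, -1.05 over 3 genes with a filter of 30 FPKM, -0.15 over 10 genes with no filter, -0.48 without centring and -0.26 with ribosome profiling FPKM per coding length. The filter changes which genes set the centre, and the last choice and a centring on protein-coding genes were added after seeing the data. At 30 FPKM the 2 genes at least 2-fold lower were FOSL1 (-1.12) and IER2 (-1.05), which were not in the lower set at 10 FPKM. The centre was 0.56 at 30 FPKM, against 0.39 at 10 FPKM, and 22.3% of all genes at 30 FPKM were lower. At 1 FPKM the genes at least 2-fold higher were 2, with FOS beside CTGF, where 15.5% of all genes were higher. At 30 FPKM, which leaves out EGR1, JUND, JUN and CTGF, the count was 0, where 15.6% of all genes were higher. These are counts of values with no test. No paired analysis was possible because each assay has 1 library. Of all 45 pairs of the 10 genes, 9 had a difference in the authors' deposited ratio whose 95% interval left out 0, which shows the limit these model errors set. Each of these 9 pairs held EGR1 or CTGF, the genes at the ends of the order.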
